A study of Mus musculus with 12 samples.

Results

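The Src-family tyrosine kinase genes *Blk*, *Src*, *Yes1*, *Fyn*, *Lyn*, *Lck*, *Fgr* and *Frk* were taken from the normalized counts of subcutaneous mouse lung tumors, together with the B cell gene *Cd79b*. These were 9 genes, 8 kinases and *Cd79b*, of the 15687 genes listed, and all 9 passed the filter on low values. The kinases were taken by family. *Blk* was selected on its normalized counts, for their large fall between the groups compared here, so its levels are described below without a test. *Cd79b* was added as the gene to set beside it, since the products of both genes work in B cells.

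The tumors were allografts of mTC11, a mouse lung cancer line. Cells were given a scrambled shRNA (CTL, 6 tumors) or an shRNA against *Filip1l* (*Filip1l*-knockdown, KD, 6 tumors) by lentivirus, kept as puromycin-selected mixed clones, and injected under the skin of male C57BL6/J mice at 8 weeks of age. All 12 tumors, host cells included, were taken on day 24 and their RNA sequenced, to ask how the tumor transcriptome differs with knockdown of *Filip1l*. CTL and KD cells were transduced and selected separately. The knockdown and other differences between the cell pools therefore cannot be told apart in this comparison. The shRNA sequence used for these tumors is not given in the sources used here. Each tumor is a separate sample in the labels, and p-values measure the spread between these tumors.

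The listed genes held 17834745 to 29502069 reads in CTL and 25460564 to 32419578 in KD tumors, so that 3 reads amounted to between 2.59 and 4.48 normalized counts. *Filip1l* itself ranged from 1983 to 2542 normalized counts in CTL and from 1670 to 2184 in KD tumors, a difference of -0.26 on the log2 scale (SE 0.07, limma adjusted p = 0.00998). It was below the CTL median in 6 of 6 KD tumors, and the groups overlapped. The epithelial keratin *Krt18* had means of 46595 normalized counts in CTL and 63556 in KD tumors. Lung markers differed in level. *Sftpd* ranged from 832 to 2408 in CTL and from 1566 to 2940 in KD tumors, without passing (adjusted p = 0.336). *Napsa* ranged from 183 to 293 and from 262 to 624, and was higher in KD (log2 difference 0.88, limma adjusted p = 0.00248). Lower and more variable were *Nkx2-1*, between 0.947 and 90.6, and *Sftpc*, listed at 0 in its lowest tumor of each group.

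Src-family kinases are cytoplasmic tyrosine kinases held at the inner face of the plasma membrane by a fatty acid on their N-terminus. They relay signals from integrins, growth factor receptors and immune receptors, and are kept inactive when the kinase CSK phosphorylates a tyrosine near their C-terminus. *Src* and *Yes1* are expressed in most tissues and *Frk* mainly in epithelia. *Blk* is best known from B cells, *Lck* from T cells, *Fgr* from myeloid cells, *Lyn* from B and myeloid cells, and *Fyn* from many cell types, T cells among them.

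The ends of the coding sequences are shown because they carry these regulatory features and tell the 8 kinases apart. The first 30 coding bases below come from the principal transcript of each gene (GENCODE vM21, GRCm38), and capitals mark cysteine codons, which can receive a second fatty acid.
*Blk* (chr14:63387797-63387826, minus strand): atggggctgctgagcagcaagaggcaggtc
*Src* (chr2:157457085-157457114, plus strand): atgggcagcaacaagagcaagcccaaggac
*Yes1* (chr5:32640339-32640368, plus strand): atgggcTGCattaaaagtaaagaaaacaaa
*Fyn* (chr10:39511750-39511779, plus strand): atgggcTGTgtgcaaTGTaaggataaagaa
*Lyn* (chr4:3738730-3738759, plus strand): atgggaTGTattaaatcaaaaaggaaagac
*Lck* (chr4:129558156-129558185, minus strand): atgggcTGTgtcTGCagctcaaaccctgaa
*Fgr* (chr4:132986163-132986192, plus strand): atgggcTGTgtgttcTGCaagaagttggag
*Frk* (chr10:34484005-34484034, plus strand): atgggcagcgtcTGTgtgagactctgggca

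In 8 of 8 the second codon encodes glycine, the residue that takes the first fatty acid. A cysteine codon stood within the first 10 codons in 6 kinases, at codon 3 in 5 of them. *Blk* and *Src* had none. The last 30 coding bases before the stop codon follow, with tyrosine codons in capitals.
*Blk* (chr14:63373395-63373424, minus strand): gccacggagggccaaTATgagctgcagccc
*Src* (chr2:157469929-157469958, plus strand): gagccacagTACcagcccggggagaaccta
*Yes1* (chr5:32684727-32684756, plus strand): gagccacagTACcaaccaggagaaaattta
*Fyn* (chr10:39563940-39563969, plus strand): gagccccagTATcagcccggtgaaaacctg
*Lyn* (chr4:3789912-3789941, plus strand): gccacagaagggcagTATcagcagcaaccg
*Lck* (chr4:129548801-129548830, minus strand): gccacagagggccagTACcagccccagcct
*Fgr* (chr4:133000311-133000340, plus strand): gaaccacagTACcagcctggagaccagaca
*Frk* (chr10:34608539-34608568, plus strand): tccTATtcagatacaaataacttcataaac

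Each of the 8 ended with a tyrosine codon inside its last 10 codons. In *Blk*, *Lyn* and *Lck* 4 codons follow it, in *Src*, *Yes1*, *Fyn* and *Fgr* 6, and in *Frk* 8. The coding regions ran from 491 codons in *Lyn* to 541 in *Yes1*, with 499 in *Blk*.

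Among the 8 genes that could be tested, *Lyn*, *Frk* and *Cd79b* were higher in KD tumors, *Fyn* was lower, and *Src*, *Yes1*, *Lck* and *Fgr* did not pass an adjusted p of 0.05. Of all 15687 genes, 21.1% were higher and 20.7% were lower by the same rule, so 3 higher and 1 lower of 8 is set against a background of 41.9%. These 3 and 1 calls were found again in each of 12 fits that left out a tumor and in each of 12 other settings. The setting without a filter is among the latter and repeats the main fit, as the filter removed 0 genes. Only *Cd79b* also passed an absolute log2 difference of 1, a pair of thresholds that 10.2% of all genes passed, 6.2% upward and 3.97% downward. At 1.01 it lay just past the log2 limit, and it no longer passed both thresholds in 4 of 12 fits with a tumor left out (without CTL replicates 2 or 3 or KD replicates 1 or 6) and in 6 of 12 other settings, where its log2 difference went down to 0.78.

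**Figure D1:**
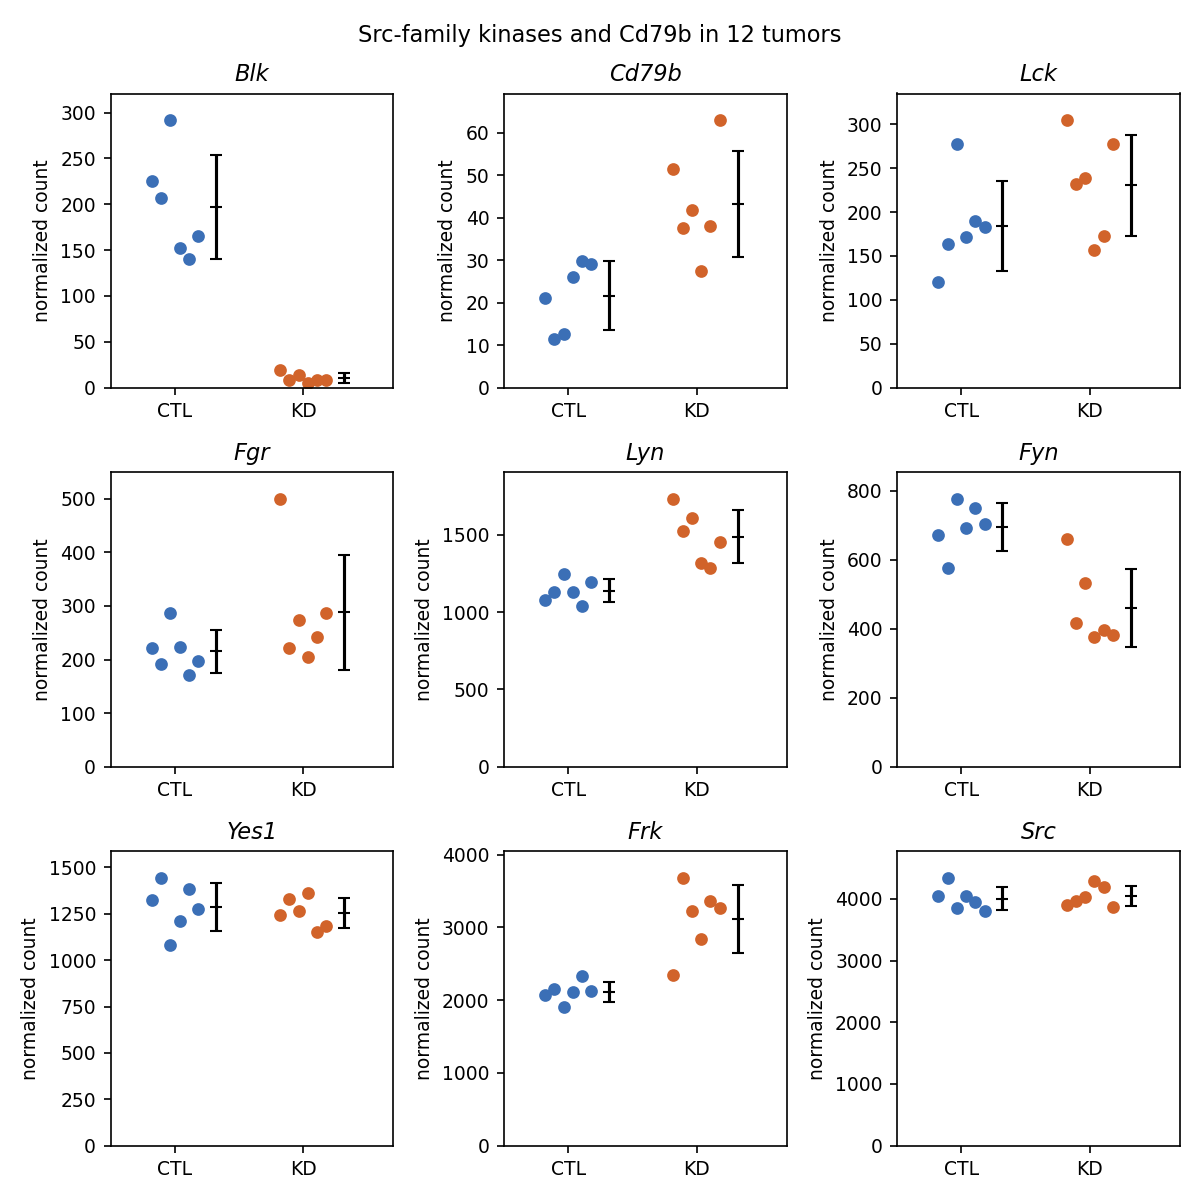
Normalized counts (vertical axes, from 0) of 9 genes in the 6 CTL (blue) and 6 KD (orange) tumors, 1 point a tumor, with the mean and SD of each group in black beside its points. *Blk* lies between 140 and 292 in CTL and between 4.90 and 19.2 in KD tumors, while *Cd79b*, *Lyn* and *Frk* are higher and *Fyn* is lower in KD.

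*Blk* (ENSMUSG00000014453, chr14:63372836-63417037, minus strand) had a lowest, median and highest normalized count of 140, 186 and 292 in CTL tumors. In KD tumors these were 4.90, 8.69 and 19.2. The KD values rest on 5 to 19 reads a tumor, all above the level of 3 reads, and the lowest CTL tumor was 7.33 times the highest KD tumor.

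The *Blk* means were 197 ± 56.6 (SD, n = 6) in CTL and 10.6 ± 5.04 (SD, n = 6) in KD tumors, a ratio of 18.6, and the log2 difference was -4.16. This was rank 7 among the falls of all 15687 genes, beside *4930461G14Rik* (-4.17) and *Pax6* (-4.12). Groups did not overlap in this direction for 10.9% of all genes. RNA came from whole tumors, and in such bulk samples fewer cells of a type and less RNA per cell cannot be told apart.

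*Cd79b* encodes a chain of the B cell receptor that is phosphorylated by Src-family kinases such as BLK and LYN. Its lowest, median and highest normalized counts were 11.4, 23.5 and 29.9 in CTL and 27.4, 39.9 and 62.9 in KD tumors. It rose in KD, opposite in sign to the *Blk* difference, from a mean of 21.6 ± 8.11 to 43.2 ± 12.4 (SD, n = 6 each), by 1.01 on the log2 scale (SE 0.29, limma adjusted p = 0.0115; exact two-sided permutation p = 0.00649 over 924 arrangements). All 6 KD tumors lay above the CTL median, although the lowest KD tumor fell within the CTL range.

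Per tumor, the ratio of *Blk* to *Cd79b* normalized counts was between 4.70 and 23.1 in CTL, with a median of 8.30. In KD tumors it was between 0.139 and 0.373, with a median of 0.225. Divided by exon length as well, the ratio spanned 2.49 to 12.2 in CTL and 0.0737 to 0.198 in KD tumors. *Blk* was therefore above *Cd79b* in each CTL tumor and below it in each KD tumor, on both scales. These ratios contain the *Blk* values that chose the gene and are given without a test.

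**Figure D2:**
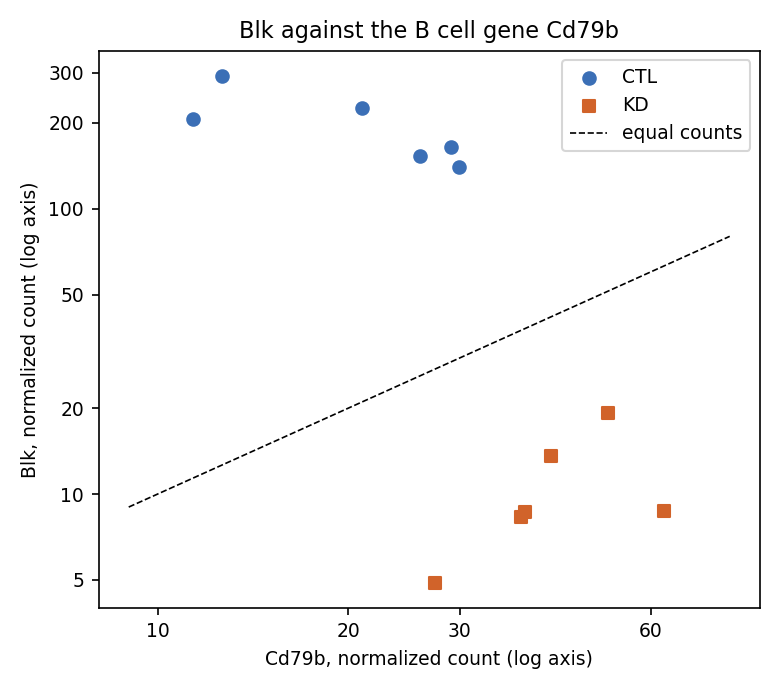
Normalized count of *Blk* (vertical, log axis) against that of *Cd79b* (horizontal, log axis) in 6 CTL (circles) and 6 KD (squares) tumors, with a dashed line where both are equal. All CTL tumors lie above the line and all KD tumors below it, with *Cd79b* between 11.4 and 62.9.

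A list of B cell markers, which includes *Cd79b* itself, was also read. Of 17 listed markers 7 had values. Among these, 4 were higher (*Cd79b*, *Ighm*, *Spib* and *Blnk*) and 0 lower in KD, beside 21.1% and 20.7% of all genes. The list median was 0.56 on the log2 scale against 0.01 for all genes. *Ighm*, the IgM heavy chain, rose from 254 ± 159 to 808 ± 495 (log2 difference 1.60, adjusted p = 0.0394), and *Spib*, a B cell transcription factor, from 21.7 ± 12.8 to 65.2 ± 25.7 (1.62, adjusted p = 0.00636). *Ighm* did not pass in 7 of 12 fits with a tumor left out, with an adjusted p up to 0.0893 (without CTL replicates 1, 2 or 5 or KD replicates 1, 2, 3 or 6). It also did not pass in 3 of 12 other settings. These were the replicate number as a block (adjusted p = 0.0555), limma without a trend (adjusted p = 0.0631) and removal of GC and length trends (adjusted p = 0.0514).

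*Blnk*, an adaptor below the B cell receptor, rose by 0.51 (adjusted p = 0.00815). *Cd22* (log2 difference 0.35, adjusted p = 0.307), *Bank1* (0.56, adjusted p = 0.197) and *Ebf1* (0.15, adjusted p = 0.455) did not pass. None of the 7 was lower, and their summed normalized count ranged from 379 to 904 in CTL and from 559 to 2061 in KD tumors. The other 10 markers, *Cd79a*, *Ms4a1* and *Pax5* among them, were not analysed here. In the plasma cell list 5 of 6 genes had values and 0 passed in either direction at an adjusted p of 0.05.

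*Lyn* relays and also restrains signals from B cell and myeloid receptors. Its lowest, median and highest normalized counts were 1040, 1132 and 1245 in CTL and 1284, 1489 and 1730 in KD tumors. The groups did not overlap, with each KD tumor above each CTL tumor, which held for 10.6% of all genes upward. The mean rose from 1137 ± 74.0 to 1486 ± 171 (SD, n = 6 each), by 0.38 on the log2 scale (SE 0.08, limma adjusted p = 0.00119; exact two-sided permutation p = 0.00216, the smallest that 6 against 6 allows).

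*Frk* belongs to the epithelial branch of the family. Values of 1908, 2119 and 2330 in CTL and 2340, 3246 and 3675 in KD tumors were its lowest, median and highest normalized counts. Again the groups did not overlap, although the lowest KD tumor, replicate 1, was only just above the highest CTL tumor. *Frk* rose from 2117 ± 135 to 3117 ± 466 (SD, n = 6 each), by 0.55 on the log2 scale (SE 0.09, limma adjusted p = 0.000306; exact two-sided permutation p = 0.00216).

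*Fyn*, which acts below T cell receptors and integrins, had normalized counts of 577, 698 and 775 in CTL and 376, 407 and 659 in KD tumors, again as lowest, median and highest. Most KD tumors lay below the CTL range, and KD replicate 1 lay inside it. The fall was from 695 ± 69.3 to 460 ± 113 (SD, n = 6 each), or -0.62 on the log2 scale (SE 0.13, limma adjusted p = 0.00190; exact two-sided permutation p = 0.00433). It remained past the threshold in every fit that left out a tumor, with log2 differences between -0.73 and -0.57.

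*Src*, the founding member of the family, ranged from 3808 to 4335 normalized counts in CTL and from 3870 to 4287 in KD tumors. Its log2 difference of 0.01 (SE 0.05, adjusted p = 0.842) turned to -0.03 when tumors were rescaled to the same total. *Yes1*, a widely expressed kinase that acts beside SRC, ranged from 1084 to 1441 in CTL and from 1153 to 1361 in KD tumors (log2 difference -0.03, SE 0.07, adjusted p = 0.772). The ranges of the groups overlapped widely for both kinases.

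*Lck*, the kinase that starts T cell receptor signaling, had normalized counts of 120, 177 and 277 in CTL and 157, 236 and 305 in KD tumors, as lowest, median and highest (log2 difference 0.33, SE 0.20, adjusted p = 0.210). *Fgr*, a kinase of neutrophils and macrophages, had 172, 209 and 288 in CTL and 206, 258 and 499 in KD tumors (0.37, SE 0.19, adjusted p = 0.140). Both differences were within the spread between tumors. The highest *Fgr* value came from KD replicate 1 and stood apart from the other KD tumors.

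Of 2 relatives outside the chosen genes, *Srms* was not analysed here. *Ptk6*, an epithelial kinase related to *Frk*, ranged from 0.882 to 4.86 normalized counts in CTL, with 4 of 6 tumors at or under 3 reads, and from 8.07 to 29.2 in KD tumors. Its values were higher in KD, and each KD tumor was above each CTL tumor (log2 difference 2.68 with a pseudocount of 1). With a pseudocount of 8 this was 1.39, so that its size depends on the scale at such low counts. The lowest mean over all tumors of any listed gene was 9.28, and the *Ptk6* mean was 2.36 in CTL tumors. *Ptk6* was thus listed only through its KD values, so its difference is a description without a test.

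Levels of different genes were compared per kilobase of exon. In CTL tumors the order of means was *Src* (917 normalized counts per kilobase), *Frk* (403), *Lyn* (279), *Yes1* (171), *Fyn* (159), *Blk* (72.9), *Lck* (62.9), *Fgr* (55.7) and *Cd79b* (15.1). *Blk* thus held rank 6 of these 9 genes, next to *Lck*, from which it did not separate: *Blk* was the higher of the pair in 3 of 6 CTL tumors.

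*Yes1* and *Fyn*, and *Lck* and *Fgr*, also overlapped in CTL. The KD order was *Src* (925), *Frk* (593), *Lyn* (365), *Yes1* (167), *Fyn* (106), *Lck* (78.7), *Fgr* (74.6), *Cd79b* (30.2) and *Blk* (3.91 normalized counts per kilobase). Here *Fyn* and *Lck*, and *Lck* and *Fgr*, overlapped, and *Blk* had the lowest mean of the 9 genes and was below *Cd79b* in 6 of 6 tumors. Pairs with *Blk* were not tested. For the other neighbours in the same order in every tumor the exact sign-flip p was 0.0312, the smallest that 6 tumors allow, or 0.0451 after adjustment over these pairs. This adjusted value moves with the number of pairs compared and lies close to 0.05.

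**Figure D3:**
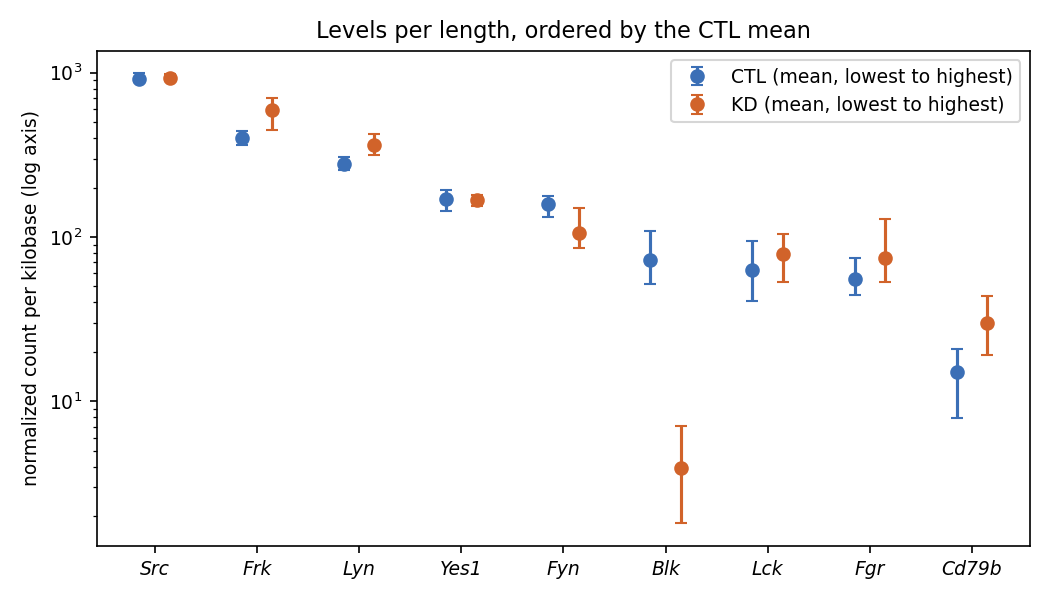
Normalized count per kilobase of exon (vertical, log axis) of 8 Src-family kinases and *Cd79b*, ordered by the CTL mean, with points for group means and bars from the lowest to the highest of 6 tumors. *Src* leads in both groups at 917 and 925, and *Blk* moves from 72.9 in CTL to 3.91 in KD tumors.

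As a share of the summed level of the 8 kinases per kilobase, *Src* made up 43.2% ± 1.61 in CTL and 40.0% ± 2.49 in KD tumors (SD, n = 6 each). *Frk* made up 19.0% ± 1.30 and 25.6% ± 3.58, and *Fyn* 7.51% ± 0.794 and 4.55% ± 1.07. The *Blk* share was 3.43% ± 0.958 in CTL and 0.168% ± 0.0792 in KD tumors. The sum itself was 2121 ± 40.4 in CTL and 2313 ± 66.3 normalized counts per kilobase in KD tumors. *Blk* was thus a minor part of the family total in both groups.

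Genes that act on these kinases were read from a list of 23 regulators, of which 21 had values. Among them 2 were higher and 8 lower in KD tumors, beside 21.1% and 20.7% of all genes, and their median log2 difference was -0.08. *Hsp90ab1*, a chaperone of Src-family kinases, fell by 0.27 on the log2 scale (adjusted p = 0.00451) and *Ptpn11*, the phosphatase SHP2, fell by 0.28 (adjusted p = 0.0186). *Cdc37*, the kinase cochaperone, had a log2 difference of -0.08 (adjusted p = 0.276).

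The following regulators were picked after their values were seen. *Csk*, which phosphorylates the C-terminal tyrosine, had means of 2940 ± 93.4 in CTL and 3005 ± 196 in KD tumors (log2 difference 0.03, adjusted p = 0.682, and -0.01 when rescaled to the same total). *Pag1*, a membrane anchor for CSK, rose from 220 ± 56.2 to 434 ± 86.6 (0.99, adjusted p = 0.000314). The myristoyltransferase *Nmt2* fell from 1326 ± 69.6 to 872 ± 97.1 (-0.61, adjusted p = 1.96e-05), whereas *Nmt1*, which adds the same fatty acid, had a log2 difference of 0.03 (adjusted p = 0.707, and -0.01 when rescaled to the same total). *Unc119*, which binds the lipid tail of these kinases, fell from 620 ± 81.0 to 338 ± 42.6 (-0.87, adjusted p = 1.92e-05).

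Of 22 adhesion substrates and partners of SRC, 5 were higher and 7 lower, with a median of 0.01. As 21.1% of all genes were higher and 20.7% lower, the higher share was near the background. *Tns1*, a focal adhesion protein, fell from 6783 ± 750 to 2946 ± 431 (log2 difference -1.21, adjusted p = 7.01e-07). *Cdcp1*, a transmembrane SRC substrate, fell from 311 ± 185 to 55.7 ± 27.4 (-2.42, adjusted p = 0.000113), and *Efs*, a docking protein that binds FYN and SRC, from 104 ± 22.3 to 49.5 ± 14.3 (-1.06, adjusted p = 0.00129). These 3 were the members of the list past both thresholds, although *Efs* was under a log2 difference of 1 without KD replicates 2 or 4 (down to -0.97) and with a pseudocount of 8 (-0.96). *Cttn* (0.06, adjusted p = 0.486), *Tjp1* (-0.14, adjusted p = 0.109) and *Crk* (0.05, adjusted p = 0.658), which had the highest counts, did not pass, although *Tjp1* did without CTL replicate 3 (adjusted p = 0.0354) and when rescaled to the same total (adjusted p = 0.0381). With that rescaling, or without KD replicate 5, 3 rather than 5 adhesion genes were higher.

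In the list of immune receptor signaling 20 of 21 genes had values, and 6 were higher and 0 lower, with a median of 0.21, beside the 21.1% and 20.7% of all genes. *Pik3ap1*, an adaptor to PI3 kinase in B cells and myeloid cells, rose from 1708 ± 289 to 2875 ± 292 (0.76, adjusted p = 7.38e-05). *Syk*, the kinase that binds phosphorylated CD79B and was picked after its values were seen, rose from 537 ± 63.4 to 990 ± 193 (0.87, adjusted p = 4.45e-05). *Fcgr2b* (-0.01, adjusted p = 0.967) and *Plcg1* (-0.12, adjusted p = 0.384) did not pass.

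**Figure D4:**
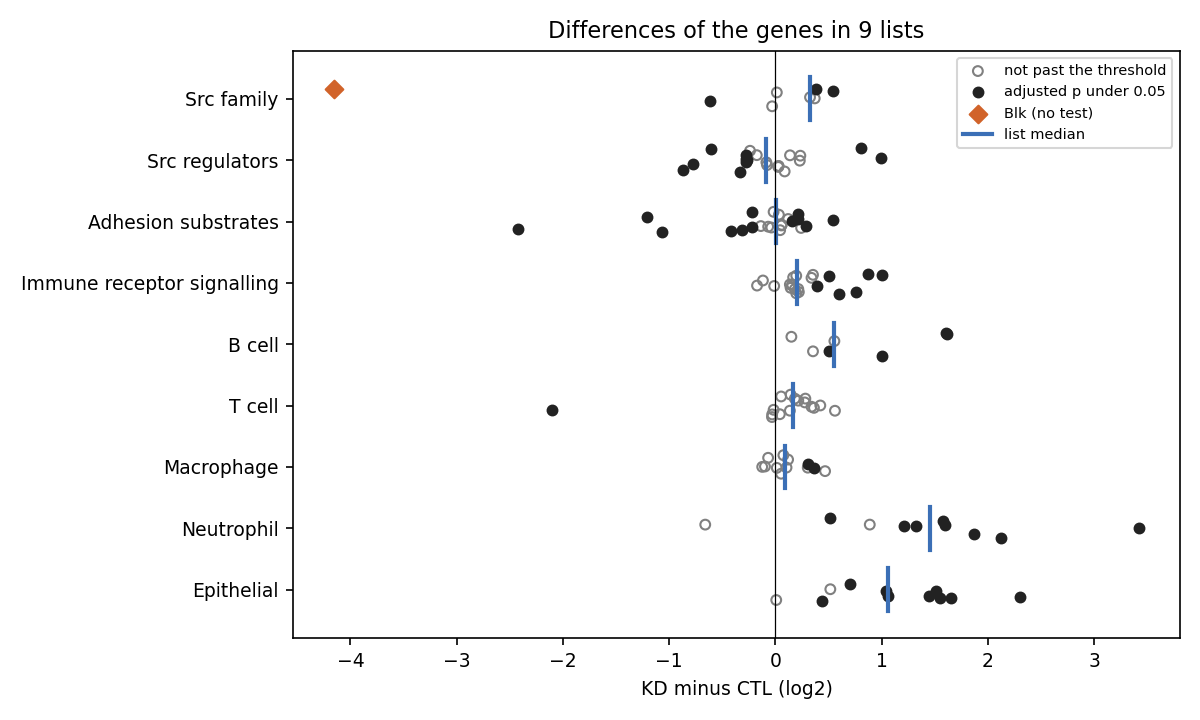
Log2 difference of KD minus CTL (horizontal) for each gene of 9 lists (rows), with filled points for an adjusted p under 0.05, open points for the rest, a diamond for *Blk*, which was not tested, and a blue bar for the median of each list without *Blk*. The neutrophil and epithelial medians, 1.45 and 1.06, lie to the right of the others, and *Blk* at -4.16 lies farthest to the left.

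Markers of the cells that use these kinases were counted beside them, and by the same rule 21.1% of all genes were higher and 20.7% lower. For *Lck* and *Fyn*, 16 T cell genes had 0 higher and 1 lower, and that gene, *Tcf7*, a transcription factor also used outside T cells, fell by 2.10 on the log2 scale (adjusted p = 9.41e-08). The *Cd8a* difference was 0.04 (adjusted p = 0.902) and that of *Trac* 0.28 (adjusted p = 0.321). Summed T cell counts spanned 2596 to 5070 in CTL and 1770 to 3549 in KD tumors. Without *Tcf7* the other 15 genes summed to between 1418 and 3751 in CTL and between 1495 and 3100.0 in KD tumors, with means of 2209 ± 827 and 2386 ± 612 (SD, n = 6 each).

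For *Lyn* and *Fgr*, 8 of 10 neutrophil genes were higher and 0 lower, beside 21.1% and 20.7% of all genes. Their sums were 1059 to 1953 in CTL and 1290 to 3458 in KD tumors, and 1 was lower without KD replicate 1. These sums lean on *Mmp9*, which had the highest mean of the list and was not among the higher genes. It ranged from 656 to 1456 in CTL and from 334 to 1828 in KD tumors (log2 difference -0.66, adjusted p = 0.116). Of the 8, *Cd177* (3.56) and *Retnlg* (5.43) had CTL means under 9.28, the lowest mean over all tumors of any listed gene. These genes were thus listed only through their KD values. Of 12 macrophage genes 2 were higher and 0 lower, with sums of 33348 to 43965 in CTL and 30488 to 72910 in KD tumors. *Lyz2*, which had the highest mean of these, reached 40990 in KD replicate 1 (log2 difference 0.08, adjusted p = 0.855). KD replicate 1 had the highest sum of both lists, as it had the highest *Fgr* and *Lyn*. For *Frk* and *Ptk6*, 9 of 11 epithelial genes were higher and 0 lower, with sums of 152411 to 199859 in CTL and 223759 to 409176 in KD tumors. KD replicate 1 had the lowest epithelial sum and the lowest *Frk* of the KD group.

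Cells in which *Blk* has also been described were weakly marked. The counts that follow stand beside 21.1% of all genes higher and 20.7% lower. *Trdc*, the delta chain of gamma-delta T cells, had means of 16.4 ± 3.34 and 20.1 ± 10.4 (0.03, adjusted p = 0.964), while 1 gene of that list was higher and 1 lower of 3 with values. Among 5 plasmacytoid dendritic cell genes 2 were higher and 1 lower. Of the higher genes, *Cox6a2* is also expressed in muscle, and its highest value, 392, was in KD replicate 3, the tumor with the highest sum of skeletal muscle genes. Of 7 natural killer cell genes 0 were higher and 1 lower, of 5 lung genes 2 were higher and 0 lower, and of 7 endothelial genes 5 were higher and 0 lower. Among 8 skeletal muscle genes 7 were higher and 0 lower, with sums of 2278 to 11569 in CTL and 4386 to 90738 in KD tumors. The counts of muscle, lung and macrophage genes were less stable: with a tumor left out they were 3 to 8, 1 to 3 and 1 to 2 higher, and muscle fell to 3 without any of CTL replicates 2, 3 and 5 or KD replicates 1, 3 and 4. Without KD replicate 4, plasmacytoid genes numbered 4 higher and T cell genes 1 higher, and without CTL replicate 2 or KD replicate 3, 0 gamma-delta genes were lower. The part of any of these cell types in the kinase differences was not tested.

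Within the groups, 26 relations between a kinase or *Cd79b* and a marker list were computed over 6 tumors each, and 0 passed after adjustment by Pearson's r or by Spearman's rho. Before adjustment 5 passed by r. *Blk* had r = 0.89 and rho = 0.94 with the B cell list in KD tumors (exact permutation p = 0.0125 and 0.0167, adjusted p = 0.120 and 0.267, and r = 0.95 without the 2 tumors farthest from the median), and r = -0.20 and rho = -0.26 in CTL tumors (exact permutation p = 0.711 and 0.658, adjusted p = 0.711 and 0.685, and r = 0.03 without 2 tumors).

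Between *Blk* and *Cd79b* r was -0.80 and rho -0.77 in CTL tumors (exact permutation p = 0.0583 and 0.103, adjusted p = 0.222 and 0.267, and r = -0.90 without 2 tumors). In KD tumors r was 0.61 and rho 0.83 (exact permutation p = 0.181 and 0.0583, adjusted p = 0.335 and 0.267, and r = 0.97 without 2 tumors). The signs of these coefficients were opposite in the groups, and the difference between them was not tested. *Lck* and the T cell list had r = 0.93 and rho = 0.83 in CTL tumors (exact permutation p = 0.00694 and 0.0583, adjusted p = 0.120 and 0.267), with r = 0.64 without 2 tumors.

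Genes beside *Blk* were read to place its difference in the genome. Within 1 Mb of *Blk* 15 genes of 55 annotated had values, and 9 were higher, 3 lower and 3 not past the threshold in KD tumors. Of all genes 21.1% were higher and 20.7% lower by the same rule. Genes of chromosome 14 had a median log2 difference of 0.39, which was seen in each KD tumor (0.32 to 0.42). After this median was removed 4 of the 15 were higher, 4 lower and 7 not past it, and *Blk* had a difference of -4.54.

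*Fam167a*, the nearest listed gene at 19357 bases from *Blk*, lay on the opposite strand beyond its 5′ end. Its lowest, median and highest normalized counts were 511, 609 and 968 in CTL and 300, 423 and 489 in KD tumors, with no overlap. It fell by 0.64 on the log2 scale (SE 0.16, adjusted p = 0.00457), and by 1.03 with the chromosome median removed (adjusted p = 0.000111).

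*Sox7*, a transcription factor of endothelial cells, fell from 142 ± 20.1 to 85.3 ± 13.4 (-0.73, adjusted p = 0.000834), and *Gucy1b2*, a guanylate cyclase subunit, from 37.7 ± 15.6 to 10.5 ± 7.56 (-1.85, adjusted p = 0.00142). In contrast, *Gata4*, a transcription factor at 101144 bases, rose from 145 ± 36.8 to 434 ± 97.0 (1.57, adjusted p = 2.28e-05). *Fdft1*, squalene synthase, rose by 0.97 and *Fam124a* by 2.43, and *Xkr6* went from 7.39 ± 3.80 to 31.6 ± 9.38 (2.09). The CTL mean of *Xkr6* was under 9.28, the lowest mean over all tumors of any listed gene. *Xkr6* was thus listed only through its KD values, and its difference is a description. These 7 calls, those of *Fam167a* and *Xkr6* included, were also made with the chromosome median removed.

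The calls of 5 more genes were not: *Ctsb* (0.55, then 0.17 with the median removed), *Rnaseh2b* (0.44, then 0.06), *Mtmr9* (0.39, then 0.01), *Pinx1* (0.54, then 0.16) and *Msra* (0.64, then 0.26). *Serpine3* (0.25), *Ints6* (0.16) and *Wdfy2* (-0.03) did not pass in the first place, and *Ints6* was lower with the median removed (-0.22, adjusted p = 0.0327) but passed as higher without KD replicate 1 (adjusted p = 0.0496). *Blk* thus lay among neighbours that differed in both directions, and the lowest value beside its own was that of *Gucy1b2*.

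**Figure D5:**
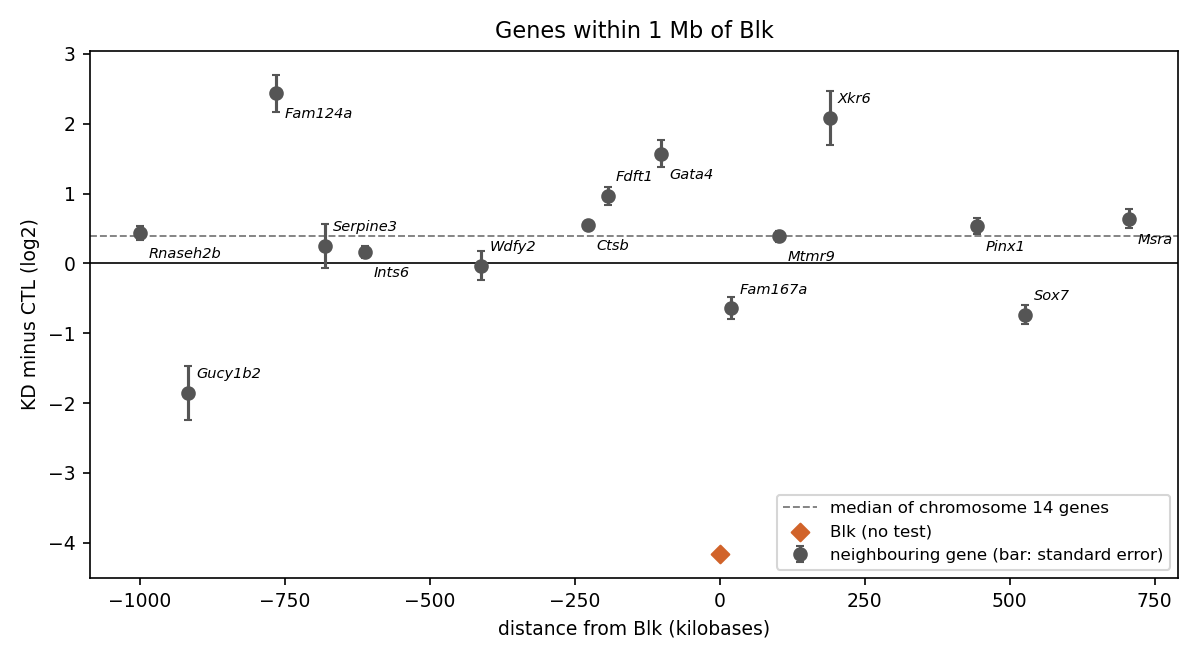
Log2 difference of KD minus CTL (vertical) against distance from *Blk* in kilobases (horizontal, negative toward lower positions on chromosome 14) for 15 listed neighbours with standard errors, *Blk* as a diamond, and a dashed line at the chromosome 14 median of 0.39. *Fam167a* (-0.64), *Sox7* (-0.73) and *Gucy1b2* (-1.85) lie below 0, far above *Blk* at -4.16.

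Among genes whose mean reached 20 normalized counts, the profiles most like that of *Blk*, by the root mean square difference of log2 values over the 12 tumors relative to the CTL mean, were *Bpifb1* (0.683), *Pax6* (0.707) and *4930461G14Rik* (0.718). *Bpifb1*, a secreted airway protein, had means of 254 ± 114 in CTL and 17.9 ± 9.44 in KD tumors, and *Pax6*, a developmental transcription factor, had 521 ± 157 and 34.5 ± 28.3. Both lie on chromosome 2 and not beside *Blk*. The same contrast chose *Blk*, so this likeness is a description.

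Reads of neighbouring annotations bear on some of these values. *Blk*, *Src*, *Fgr*, *Frk* and *Cd79b* overlapped 0 other annotated genes. *Yes1*, *Fyn*, *Lyn* and *Lck* overlapped between 1 and 4 noncoding genes, pseudogenes or small RNAs each, most on the opposite strand, and whether the counting used strand is not given in the sources used here.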

How the data were processed

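RNA from 12 tumors, 6 CTL and 6 *Filip1l*-knockdown, was sequenced by the authors. According to the paper and the submitters' processing notes, reads were demultiplexed with bcl2fastq 2.20, trimmed with Trimmomatic 0.36, aligned with STAR 2.5.2b to a mouse genome (mm10) and counted per gene with featureCounts of Subread 1.5.2. The authors divided the counts by DESeq2 size factors before they were deposited, so the values are a normalized signal that compares tumors for the same gene and is not corrected for length. Dividing by the smallest step of each column gave whole reads for 100% of values (tolerance 0.05 reads), which gave the depth and the level of 3 reads. Both cover counting error only, as reads carry no molecular identifiers.

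Groups were compared with limma 3.58.1 (mean-variance trend, R 4.3.3) on log2(normalized count + 1), with Benjamini-Hochberg adjustment over 15687 genes. Fold changes on this scale understate those of low genes. A filter at a mean of 5 removed 0 genes, and the lowest mean was 9.28. Genes passed at an adjusted p of 0.05, and both thresholds add an absolute log2 difference of 1, as in the paper. Exact permutation tests were two-sided. Exon lengths, positions and coding sequences came from GENCODE vM21 (GRCm38), where 15655 identifiers were found. Other tools were Python 3.11.15, scipy 1.17.1 and matplotlib 3.10.9.

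The genes, lists and tests were chosen with earlier results of these data known. Named were all chosen genes, *Ptk6*, of each pathway list the genes past both thresholds and the 3 with the highest mean, 3 genes of each marker list at most (all of the B cell list and more of the lung list), all listed genes within 1 Mb of *Blk*, and the 3 profiles most like it. *Csk*, *Pag1*, *Unc119*, *Nmt1*, *Nmt2* and *Syk* were added after their values were seen. Alternatives were other pseudocounts, filters, scalings and variance models, removal of chromosome medians or of GC and length trends, a replicate block, leaving out each tumor, and, chosen after seeing the data, edgeR 4.0.16 and DESeq2 1.42.0 on the recovered reads. On simulated counts for 15687 genes in this comparison, limma and edgeR each recovered 200 of 200 changed genes. The changes were planted only in genes away from the lowest counts, at log2 differences well past the limit of 1, and with the same spread for all genes. Such settings make high recovery easy. Recovery at differences as small as those of *Lyn*, *Frk* and *Fyn*, or at counts as low as those of *Cd79b*, was not tested. Replicate numbers are not stated to pair tumors, and same-numbered tumors had correlations between -0.269 and 0.0990 after group means were removed. Some items are not reported here.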

Additional observations from a re-analysis of the deposited data

Results flagged for a closer look

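In 11 of 102 groups of 6 tumors checked over 51 genes, the highest or lowest tumor stood farther from the rest than Dixon's 95% limit allows, which chance alone gives in about 1 of 20 groups. KD replicate 1 was that tumor in 6 of the 11. In this tumor *Fgr* had 499 normalized counts, *Fcgr2b* 3521, *Cd22* 166, *Tcf7* 449 and *Gucy1b2* 25.2, each the highest of the KD group, and *Gata4* had 237, the lowest. *Bank1* was highest in KD replicate 3 at 24.0. Among CTL tumors *Cdcp1* (670.4) and *Fam167a* (968) were highest in replicate 2, *Msra* (508) was highest in replicate 3, and *Efs* (59.8) was lowest in replicate 5. No cause of these values was tested.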

How the results depend on the processing

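Across 2065 repeats of the results under other settings, 1978 were taken as unchanged. For single tested genes this meant the same direction and the same side of the threshold. For counts it meant a value within a set factor of the main count, which is a looser rule. The *Blk* difference had to move by less than its SD between tumors, and ranks had to be equal. The setting without a filter repeats the main fit, so its unchanged results were fixed in advance. The counts of 3 higher and 1 lower among the tested genes were found in every setting. Genes past both thresholds numbered 1596 (973 higher and 623 lower), 1352 to 1652 under other settings and 1513 to 1712 with a tumor left out. edgeR on the recovered reads called 1635 (1015 and 620) and DESeq2 1652 (1040 and 612). With the replicate number as a block they were 1554 (953 and 601), and the block changed no call of the kinases or *Cd79b*; *Ighm* no longer passed, 1 lung gene rather than 2 was higher and 0 gamma-delta T cell genes rather than 1 were lower. Same-numbered tumors were not more alike than others, so the numbers are taken as names only.

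The *Blk* log2 difference was -3.46 with a pseudocount of 8, -4.54 with chromosome medians removed and -4.34 to -3.99 with a tumor left out. With tumors rescaled to the same total, 3 rather than 5 adhesion substrates were higher, and *Src* (-0.0278), *Csk* (-0.0121) and *Nmt1* (-0.0141) changed sign. With chromosome medians removed, *Nmt1* (-0.00673), *Serpine3* (-0.127) and *Ints6* (-0.218) changed sign. Removal of GC and length trends turned *Yes1* (0.0185), *Cttn* (-0.0432) and *Wdfy2* (0.0327), and *Fcgr2b* became 0.0390 in edgeR and 0.0510 in DESeq2. With 1 tumor left out, log2 differences ranged from -0.00316 to 0.0368 for *Src*, from -0.0784 to 0.00379 for *Yes1*, from -0.000242 to 0.0455 for *Nmt1*, from -0.0113 to 0.0801 for *Crk*, from -0.193 to 0.0472 for *Fcgr2b* and from -0.177 to 0.0742 for *Wdfy2*, and 3 to 5 adhesion substrates were higher, the fewest without KD replicate 5. Of the correlations, 1 rather than 0 passed when markers were summed as counts. These causes were not tested. Low counts, such as 5 to 19 reads for *Blk* in KD tumors, limit the precision of the largest differences.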
